A study of Homo sapiens with 6 samples.

Results

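The 9 genes described here carry retinoids, the vitamin A derivatives of vision, or run steps of the visual cycle: RPE65, LRAT, RLBP1, RDH12, ABCA4, RBP3, RBP4, CRABP1 and CRABP2. They were named by symbol among the 36601 genes of the deposited matrices, and the rule that names them uses no measured value. They were chosen, however, with earlier results of these data known. Their raw counts were summed per sample over rods, cones, Müller glia and pigment epithelium, and were divided by the sum's total and scaled to counts per 1000000 (CPM). A count here is a unique molecular identifier (UMI), a tag of 1 captured transcript end in 1 cell. A cell counted as a rod with at least 3 UMIs of NRL, and as a cone with at least 3 of PDE6H and more PDE6H than NRL. It counted as Müller glia with at least 3 UMIs of HES5, WIF1 and TTYH1 together, and as pigment epithelium with at least 3 of PMEL and TYRP1 together.

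The cells came from retinal organoids grown from WA09, a widely used line of human embryonic stem cells that carried the CRX-tdTomato reporter. CRX is a photoreceptor transcription factor. All organoids were between day 113 and day 126 of culture and were broken into fragments by trituration. One group of 3 samples was kept in culture for 3 days, and the other group of 3 samples spent those 3 days under the retina of normal dogs. Each of 3 Sets was an experiment of its own with 1 cultured and 1 transplanted sample from the same organoid batch, which makes n = 3 for either group and ties the samples into pairs by Set. No further genotype or drug is given in the labels, the age and number of the dogs are not given, and all samples share 1 line.

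In the visual cycle, light turns 11-cis retinal bound to opsin into all-trans retinal. ABCA4 moves retinal out of the outer segment disc, RDH12 reduces it to retinol in the photoreceptor, and RBP3 (interphotoreceptor retinoid-binding protein) carries retinoids across the space to the pigment epithelium. There LRAT makes retinyl esters, RPE65 isomerises them, and RLBP1 (cellular retinaldehyde-binding protein), which Müller glia also hold, binds the 11-cis product. RBP4 transports retinol between tissues, and CRABP1 and CRABP2 bind retinoic acid inside cells, the form of vitamin A that acts on nuclear receptors.

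Between 694 and 17899 cells were kept per sample, with 6372858 to 107371143 UMIs in the kept cells and a median of 2140 to 4415 UMIs per cell. Many cells met more than 1 class rule, for example 2332 of 4269 cells that met the rod rule in cultured sample 1. Those cells were left out of the classes, and keeping them in each class they met, as an alternative, shrank most differences between classes. This left 146 to 2766 rods, 14 to 1689 cones and 25 to 3621 Müller glia per sample. Pigment epithelium reached the minimum of 20 cells in cultured samples 1 and 2 (124 and 51 cells) and transplanted sample 1 (66 cells). The 14 cones of transplanted sample 2 were below it, so cones rest on 5 samples. Rods held NR2E3 at 121 to 442 CPM, while SAG, the rod arrestin, was 0.780 to 6.67 CPM. Cones held ARR3 at 11.5 to 26.0 CPM, and OPN1SW reached at most 3.45 CPM. Müller glia held SOX2 at 231 to 407 CPM and SLC1A3 at 34.6 to 129.5 CPM. GLUL, at 24.7 to 149.97 CPM there, overlapped its range in rods (41.2 to 144 CPM), and 5 markers of dividing cells summed to 59.5 to 1323 CPM there. Pigment epithelium held BEST1 at 247 to 361 CPM, with CLIC6, also a choroid plexus gene, at 98.6 to 247 CPM. At most 1.01% of the cell barcodes of the smaller library were shared between any 2 samples.

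The members lie on 5 chromosomes in GENCODE v29 (GRCh38), and no member shared exon bases on its own strand with another annotated gene. RPE65 lies at chr1:68428822-68449959, LRAT at chr4:154626945-154753118 and RLBP1 at chr15:89209869-89221751. RDH12 lies at chr14:67701886-67734452, where 536 of its exon bases overlap ZFYVE26 on the opposite strand, and whether counting used strand is not given in the sources used here. ABCA4 lies at chr1:93992835-94121132, RBP3 at chr10:47348371-47357875 and RBP4 at chr10:93591687-93601744. CRABP1 lies at chr15:78340324-78348230 and CRABP2 at chr1:156699606-156705816. Of words of 31 bases in their transcripts, 8 members shared none with any other gene, and LRAT shared 1.64% of its words with transcripts of 1210 other genes.

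RefSeq promoter entries (GRCh38.p14) were found for 6 of the 9 members. Those of 3 members are printed from 5′ to 3′ because the levels below turn on them: RLBP1, which separates pigment epithelium and Müller glia from photoreceptors, and CRABP1 and CRABP2, close relatives with different changes in rods. The 250 bases before each start were searched on both strands for TAATCC (the core of sites bound by CRX and OTX2), for the E-box CACGTG, and for the retinoid receptor half-site AGGTCA with its variants, which read GGGTCA, or in other promoters AGTTCA, or in still others GGTTCA. None of these motifs overlaps another in the printed stretches, and capitals mark the matches.
RLBP1, chr15:89221623-89221652, minus strand: cttatgacacacTAATCCcaacctgctgac
CRABP1, chr15:78340103-78340323, plus strand: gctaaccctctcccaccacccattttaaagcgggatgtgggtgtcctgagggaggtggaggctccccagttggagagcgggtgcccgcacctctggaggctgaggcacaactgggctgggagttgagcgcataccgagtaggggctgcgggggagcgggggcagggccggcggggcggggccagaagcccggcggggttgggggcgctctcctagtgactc
CRABP2, chr1:156705817-156706034, minus strand: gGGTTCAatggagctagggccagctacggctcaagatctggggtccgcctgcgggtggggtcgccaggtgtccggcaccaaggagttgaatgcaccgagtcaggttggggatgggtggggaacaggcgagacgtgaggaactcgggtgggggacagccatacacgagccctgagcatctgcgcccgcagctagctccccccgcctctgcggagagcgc
The RLBP1 window held TAATCC with its first base 61 bases before the start, a motif that 5.62% of 35116 RefSeq promoter windows of 250 bases hold. CRABP2 held a GGTTCA half-site 249 bases before its start, and 33.8% of the windows hold at least 1 of the 4 half-sites. The CRABP1 window held none of the motifs, and neither did those of RPE65, LRAT and RBP4. No match says only that these letters are not in the window.

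The first comparison asked in which class each gene is used. Classes were compared in 1 edgeR quasi-likelihood fit over 16927 genes, with the sample as a block and p-values adjusted over all genes (Benjamini-Hochberg, threshold 0.05). RBP3, ABCA4, RDH12, RBP4 and CRABP2 were higher in photoreceptors than in Müller glia, whereas CRABP1 and RLBP1 were lower in them. Against Müller glia, 7 of 9 members differed in rods, 5 higher and 2 lower, where 44.3% of all genes did (22.4% higher and 21.9% lower). In cones 7 of 9 differed, 5 higher and 2 lower, against 43.7% of all genes (21.1% higher and 22.6% lower). Pigment epithelium differed from rods in 8 of 9 members (39.0% of all genes), from cones in 8 of 9 (37.3%) and from Müller glia in 3 of 9 (26.1%). Rods and cones differed in 2 of 9 members, RBP4 and CRABP2, both lower in rods, against 7.26% of all genes (3.75% lower). The members' median log2 difference from Müller glia was 2.22 in rods and 3.03 in cones, beside 0.06 and 0.02 over all genes. With cells of several classes kept, the sums of 2 classes shared cells, which by itself brings them closer. In cultured sample 1, 2000 of 4269 rods were then Müller glia too. The call of rods against Müller glia ended in that setting for RBP3 (0.45), RBP4 (0.20), RDH12 (0.36) and CRABP2 (0.19). It held for 3 members, ABCA4 at 0.55, CRABP1 at -0.68 and RLBP1 at -0.66. In cones it ended for RBP3 (0.28, edgeR adjusted p = 0.27), and RBP4 fell to 1.05, RDH12 to 0.61, ABCA4 to 0.41 and CRABP2 to 0.87. Pigment epithelium then no longer differed by the test from rods in RBP4 (-0.88), RDH12 (-1.18) and CRABP1 (-0.32), or from cones in RDH12 (-1.44) and CRABP1 (-0.09).

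**Figure D1:**
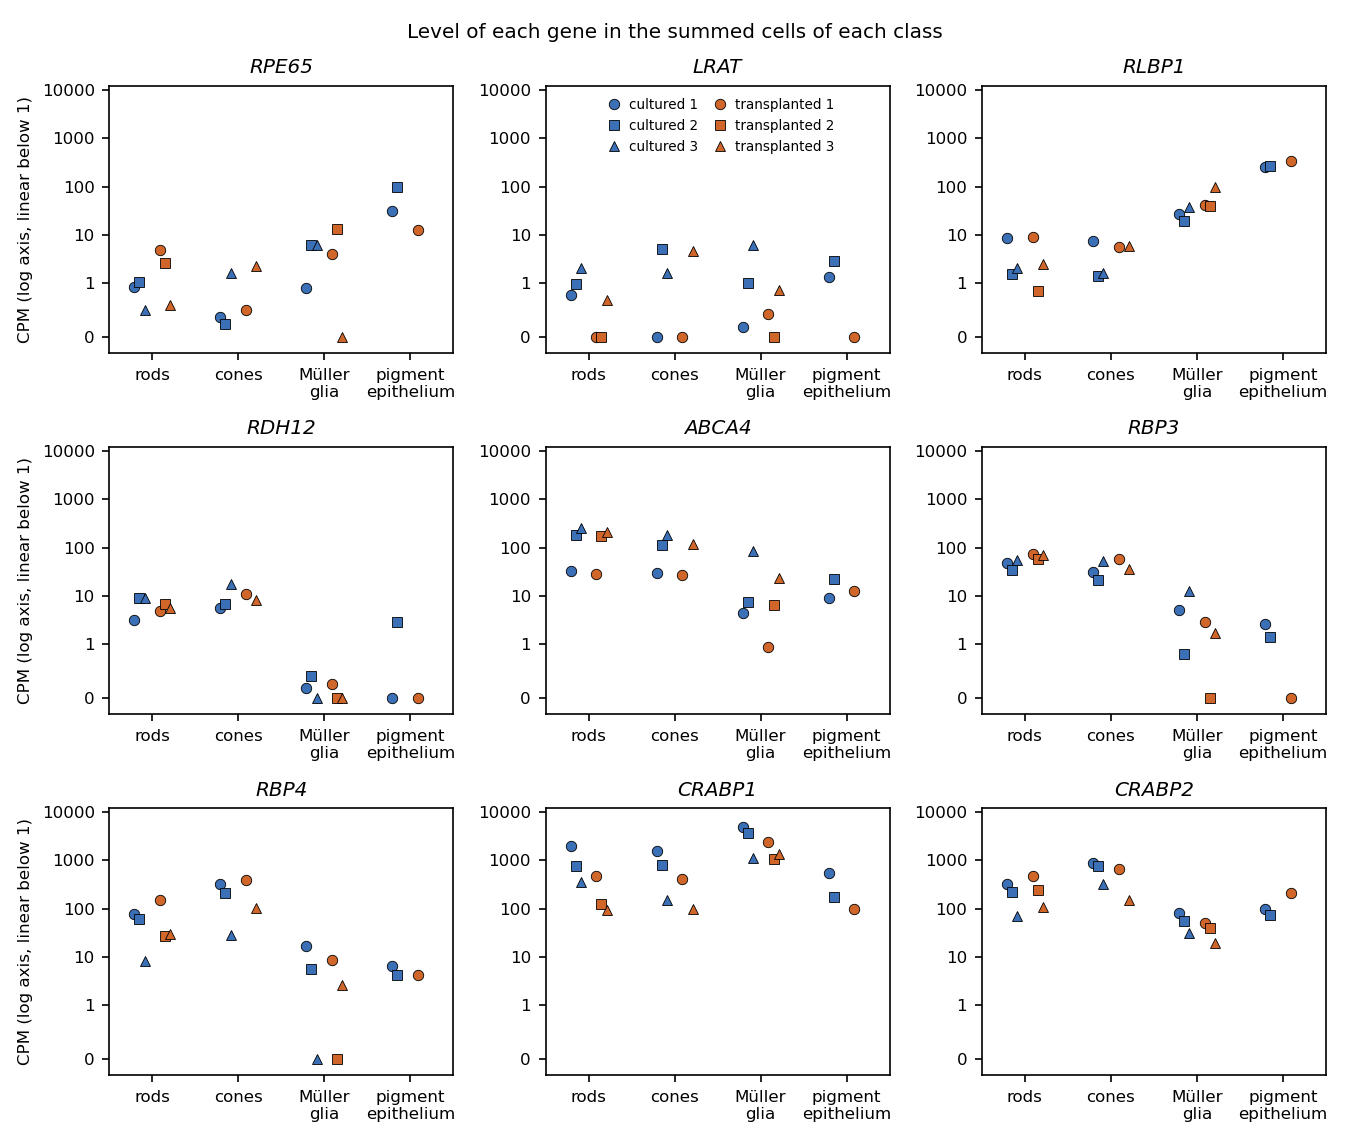
CPM of each gene (log axis, linear below 1) in the summed cells of each class, 1 point per sample with at least 20 cells of the class, blue for cultured and orange for transplanted samples, the marker shape giving the Set. RPE65 and RLBP1 sit highest in pigment epithelium, RDH12, ABCA4 and RBP3 in rods and cones, RBP4 and CRABP2 in cones, and CRABP1 in Müller glia.

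RPE65, the isomerase of the visual cycle, was higher per UMI in pigment epithelium than in the other 3 classes. Its level there was 31.5 CPM in cultured sample 1 (24 UMIs, exact Poisson 95% interval 20.2 to 46.9), 98.0 CPM in cultured sample 2 (76.3 to 124.0) and 12.5 CPM in transplanted sample 1 (4.57 to 27.1). Rods held 0.509 to 4.93 CPM, cones 0.236 to 2.30 CPM and Müller glia 0 to 13.2 CPM, so that Müller glia and pigment epithelium overlapped. The top value of Müller glia came from transplanted sample 2, which held 25 such cells, so the overlap rests on few UMIs. The Poisson intervals cover counting error only. Pigment epithelium exceeded rods by 5.03 ± 0.76 on the log2 scale (SE, edgeR adjusted p = 6.5e-05), cones by 6.25 ± 0.91 (adjusted p = 4.5e-05) and Müller glia by 3.89 ± 0.67 (adjusted p = 0.00039). RPE65 is itself a marker of this class, though not one of the 2 genes that chose it.

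LRAT, which stores retinol as esters, was barely captured. Pigment epithelium gave 1 UMI in cultured sample 1, 2 in cultured sample 2 and 0 in transplanted sample 1, where 0 of 481506 UMIs allows up to 6.23 CPM. Cones gave between 0 and 5.19 CPM and rods between 0 and 2.04 CPM. No class contrast of LRAT passed the test, with a log2 difference of -1.43 ± 0.67 between rods and cones (edgeR adjusted p = 0.24). That difference was called with cells of several classes kept (-0.88, adjusted p = 0.0077), with at least 5 marker UMIs (-1.70, adjusted p = 0.048) and with markers of at least 1 in 1000 UMIs (-1.42, adjusted p = 0.038). With cells of several classes kept, cones also exceeded Müller glia (0.74, adjusted p = 0.011).

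RLBP1 was high in pigment epithelium, lower in Müller glia and lowest in photoreceptors. Pigment epithelium held 248 and 261 CPM in cultured samples 1 and 2 and 336 CPM in transplanted sample 1. Müller glia held 27.3, 19.0 and 37.0 CPM in cultured samples 1, 2 and 3, and 42.0, 39.7 and 96.3 CPM in transplanted samples 1, 2 and 3. The ranges of these classes did not overlap, and rods (0.856 to 8.88 CPM) and cones (1.42 to 7.36 CPM) lay below both. Pigment epithelium exceeded Müller glia by 3.02 ± 0.52 on the log2 scale (edgeR adjusted p = 0.00092) and rods by 6.33 ± 0.56 (adjusted p = 1.7e-06). The difference between rods and cones did not pass the test (log2 -0.25 ± 0.67, adjusted p = 0.92). With every cell thinned to 1000 UMIs, 19.6 to 39.4% of pigment epithelium, 2.68 to 14.3% of Müller glia and at most 0.774% of rods held an RLBP1 UMI. Without thinning these shares were 59.7 to 77.3%, 9.003 to 37.8% and 0.685 to 3.15%, at median depths of 4519 to 10912, 3542 to 7273 and 2745 to 5361 UMIs.

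In Müller glia RLBP1 was higher in the transplanted sample of each Set and the groups did not overlap, which 2.69% of all genes showed in that direction. The margin was thin, since cultured sample 3 and transplanted sample 2 rest on 6 RLBP1 UMIs each, from 33 and 25 cells. The ratio of transplanted to cultured was 1.54 in Set 1, 2.09 in Set 2 (95% counting interval 0.749 to 4.73) and 2.60 in Set 3 (1.16 to 7.24). The log2 change was 1.05 ± 0.37 and did not pass the test (edgeR with the Set as a block, adjusted p = 0.24). With cells of several classes kept it was 1.18 (adjusted p = 0.0044). In transplanted sample 3, the highest, 47.2% of the RLBP1 UMIs of all cells lay in cells with a low share of UMIs on transcripts named only by a clone. That limit, the 1st percentile of the cultured cells of the Set, was set as a possible index of dog cells, and how well it tells the species apart was not tested. Below it lay 23.6% of all UMIs of the sample and 67 of its 119 Müller glia. Cultured sample 3 had the highest median share, 4.36%, against 2.63% in transplanted sample 3. With the cells below the limit removed in all samples, the change of RLBP1 in Müller glia was 1.15 (adjusted p = 0.23). At 1000 UMIs per cell, 2.68, 4.30 and 6.06% of Müller glia held an RLBP1 UMI in cultured samples 1, 2 and 3, and 3.91, 4 and 14.3% in transplanted samples 1, 2 and 3, so that on this measure the groups overlapped.

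Most RPE65 of transplanted sample 1 lay outside the 4 classes. Dividing cells of that sample held 777 CPM of RPE65, against 2.23 and 2.72 CPM in those of cultured samples 1 and 2, and its remaining cells held 93.8 CPM, against 1.44 to 1.93 CPM in cultured samples. A total of 49 cells with at least 3 RPE65 UMIs held 93.0% of the sample's RPE65 UMIs, up to 88 in 1 cell. Only 9 of them were among the dividing cells and 23 among the remaining cells, so these levels do not describe either group as a whole. In the 49 cells TTR, the partner of RBP4 in retinol transport, was 3181 CPM, against 773 CPM in the other cells of the sample. MITF, a pigment cell transcription factor, was 59.5 CPM (8.79 CPM in the other cells), RDH10 253 CPM (44.8 CPM), RLBP1 74.8 CPM (35.3 CPM) and RDH5 38.4 CPM (9.95 CPM). The melanosome genes PMEL and TYRP1 were 11.5 CPM and 0 CPM (53.2 and 23.0 CPM in the other cells), and BEST1 was 0 CPM (9.81 CPM). SERPINF1 was 148 CPM (230 CPM in the other cells) and RGR 7.67 CPM (10.3 CPM). The median share of UMIs on clone-named transcripts was 0.289% in the 49 cells, against 0.676% in the other cells. Of the 49, 22 lay below the limit described above. Below it lay 46.3% of the sample's RPE65 UMIs and 1.66% of all its UMIs. Cultured sample 2 held 24 cells with at least 3 RPE65 UMIs, with PMEL at 1629 CPM and TYRP1 at 683 CPM. Transplanted sample 3 held 5, with 40.5% of its RPE65 UMIs, and all 5 lay below the limit. In them PMEL and TYRP1 were 0 CPM, against 2.53 and 0.574 CPM in its other cells. Whether such cells of transplanted samples 1 and 3 came from the dog host was not tested.

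**Figure D2:**
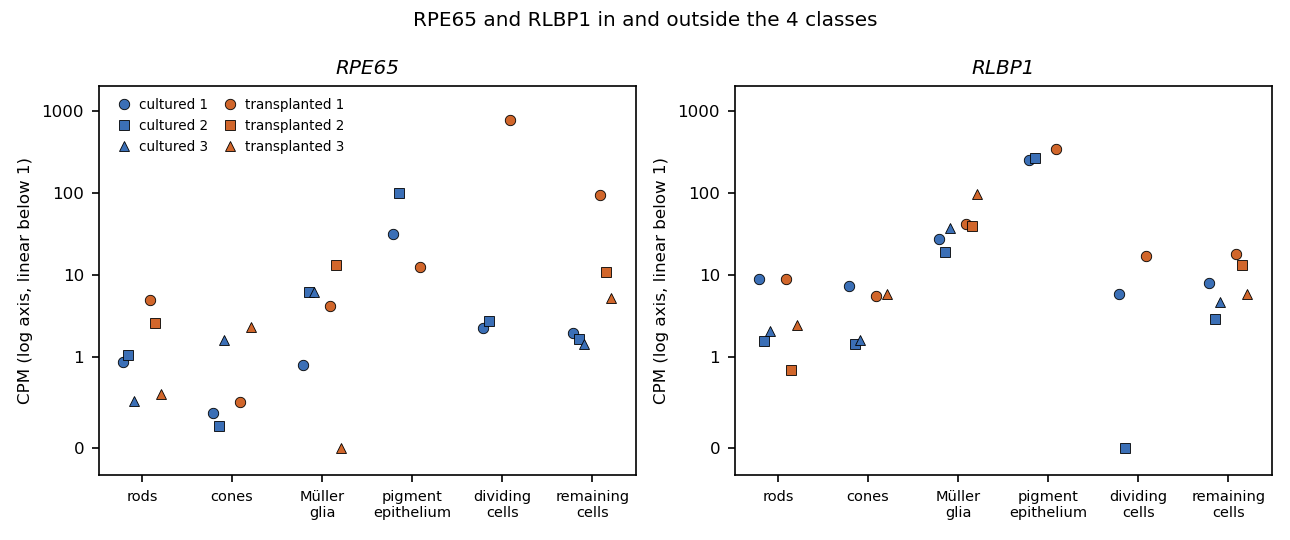
CPM of RPE65 (left) and RLBP1 (right), log axis and linear below 1, in the 4 classes, in dividing cells and in the remaining cells, 1 point per sample with at least 20 cells of the group. RPE65 reached 777 CPM in dividing cells and 93.8 CPM in remaining cells of transplanted sample 1, while RLBP1 was highest in pigment epithelium. In these 2 groups of that sample, 9 and 23 cells held at least 3 RPE65 UMIs.

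ABCA4 was high in rods and cones and differed more between Sets than between culture and transplant. Rods held 33.2, 178 and 249 CPM in cultured samples 1, 2 and 3, and 27.9, 171 and 209 CPM in transplanted samples 1, 2 and 3. Both samples of Set 1 were low, and the 2 groups overlapped. Cones held 29.5, 114 and 179.9 CPM in culture, and 26.5 and 116 CPM in transplanted samples 1 and 3. Müller glia held 0.942 to 86.4 CPM, the top value resting on 14 UMIs in cultured sample 3. Rods exceeded Müller glia by 3.48 ± 0.31 on the log2 scale (edgeR adjusted p = 1.9e-07), and cones by 3.03 ± 0.33 (adjusted p = 1.4e-06). Set 1 was processed with another version of Cell Ranger than Sets 2 and 3, so the Set and the version cannot be told apart. On transplantation the log2 change was -0.11 ± 0.23 in rods (adjusted p = 0.85) and -0.39 ± 0.37 in cones (adjusted p = 0.81). Outside the classes, remaining cells held 6.84, 29.1 and 103 CPM in culture and 8.34, 132 and 134 CPM after transplantation.

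RDH12 followed photoreceptors at a low level. Rods held 3.12, 9.10 and 9.16 CPM in cultured samples 1, 2 and 3, and 4.93, 6.85 and 5.69 CPM in transplanted samples 1, 2 and 3. Cones held 5.66, 6.84 and 17.7 CPM in culture, and 11.0 and 8.04 CPM in transplanted samples 1 and 3. The groups overlapped in both classes, and Müller glia held at most 0.408 CPM. Rods exceeded Müller glia by 4.16 ± 0.43 on the log2 scale (edgeR adjusted p = 1.6e-08) and cones exceeded them by 4.72 ± 0.44 (adjusted p = 2.3e-09). The change on transplantation was -0.08 ± 0.37 in rods and 0.16 ± 0.56 in cones (adjusted p = 0.94 and 0.97).

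RBP3, the retinoid carrier of the space around photoreceptors, marked rods and cones and was higher in transplanted rods of each Set. Rods held 46.9, 34.2 and 53.9 CPM in cultured samples 1, 2 and 3, and 71.7, 58.2 and 68.4 CPM in transplanted samples 1, 2 and 3. The groups did not overlap, which 3.94% of all genes showed in that direction. The means were 45.0 ± 10.0 and 66.1 ± 7.06 CPM (SD, n = 3 each), and the log2 change of 0.64 ± 0.20 did not pass the test (edgeR, Set as a block, adjusted p = 0.091). Without Set 3 it was 0.66 and passed (adjusted p = 0.035). Cones held 31.2, 21.7 and 53.0 CPM in culture, and 56.6 and 36.8 CPM in transplanted samples 1 and 3, with overlap and no call (adjusted p = 0.91). Müller glia held 0 to 12.3 CPM. Rods exceeded Müller glia by 3.94 ± 0.26 on the log2 scale (adjusted p = 5.1e-11), but by 0.45 (adjusted p = 0.065) with cells of several classes kept. At 1000 UMIs per cell, 3.40 to 8.24% of rods and at most 0.497% of Müller glia held an RBP3 UMI, and without thinning 13.5 to 34.1% and at most 6.06%.

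RBP4, the carrier of retinol in blood, was higher in cones than in any other class. Cones held 319, 213 and 28.9 CPM in cultured samples 1, 2 and 3, and 390.4 and 102 CPM in transplanted samples 1 and 3. Rods held 75.8, 60.8 and 8.14 CPM in culture, and 152.9, 26.5 and 30.2 CPM in transplanted samples 1, 2 and 3. In each sample cones lay above rods, and Set 3 was low in culture. Rods were lower than cones by a log2 difference of -1.74 ± 0.18 (edgeR adjusted p = 6.8e-07), and cones exceeded Müller glia by 4.82 ± 0.23 (adjusted p = 9.7e-14). With no block for the sample, the difference between rods and cones was -1.90 and was not called (adjusted p = 0.87). Transplanted rods were higher in Sets 1 and 3 and lower in Set 2, with a log2 change of 0.59 ± 0.44 (adjusted p = 0.54). Without Set 2 it was 1.38 and passed (adjusted p = 0.0016), and with markers of at least 1 in 1000 UMIs it was 1.27 (adjusted p = 0.035).

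CRABP1 was the 1 member whose level changed on transplantation by the test, and it fell in rods. Rods held 1985, 748 and 349 CPM in cultured samples 1, 2 and 3, and 462, 123.2 and 95.2 CPM in transplanted samples 1, 2 and 3. The level was 4.29, 6.07 and 3.66 times lower in the transplanted sample of Sets 1, 2 and 3, a direction that 26.1% of all genes showed in each Set. Across Sets the groups overlapped, since transplanted rods of Set 1 lay above cultured rods of Set 3. The log2 change was -2.12 ± 0.34 (edgeR, Set as a block, adjusted p = 0.0024). It made 1 of 8 members called in rods, where 4.36% of 16995 genes were called and 2.75% were called lower.

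The rod result rested on the pairing and on the class rule. With no block for the Set the change was -2.20 ± 1.11 and not called (adjusted p = 1). With cells of several classes kept, rods held 2834, 2086 and 601 CPM in culture and 1261, 615 and 323 CPM after transplantation, a change of -1.11 (adjusted p = 0.18). With markers of at least 1 in 1000 UMIs it was -1.30 (adjusted p = 0.088). It was called without Set 1, 2 or 3, at -1.90 to -2.36 (adjusted p = 1.85e-12 to 0.0362).

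Several sets of markers of other cells, but not all, and a measure of RNA quality moved with it. In rods, 7 Müller glia markers other than the genes of the rule and RLBP1 summed to 3001, 1348 and 567 CPM in cultured samples 1, 2 and 3. They summed to 1504, 498 and 438 CPM after transplantation, lower in each Set. The 5 markers of dividing cells summed to 430, 55.6 and 112 CPM in cultured rods and 53.7, 12.8 and 32.4 CPM in transplanted rods, lower in each Set and with no overlap. Marker sums of amacrine or horizontal, choroid plexus, mural or fibroblast and astrocyte cells in rods were lower in each Set as well. Those of cones and pigment epithelium were lower in 2 of 3 Sets, and those of bipolar, myeloid and red blood cells in 1 of 3. These sums can rest on 1 gene. In rods of cultured sample 1, VIM gave 2277 of the 3001 CPM of Müller glia markers. TTR gave 694 of the 710 CPM of choroid plexus markers there, and TTR is among the pigment epithelium markers too. The median mitochondrial share of rods was 1.65, 2.77 and 1.07% in cultured samples 1, 2 and 3 and 4.21, 3.86 and 3.25% in transplanted samples, higher in each Set. At 1000 UMIs per cell, 61.3, 26.5 and 19.2% of cultured rods and 24.4, 11.0 and 7.48% of transplanted rods held a CRABP1 UMI. Over all kept cells CRABP1 itself was 3313, 2021 and 564 CPM in culture and 1521, 616 and 373 CPM after transplantation. The level in rods was 0.599, 0.370 and 0.618 times that of all cells in culture, and 0.304, 0.200 and 0.255 times after transplantation. In pigment epithelium the ratio was 0.163, 0.086 and 0.063 in cultured 1, cultured 2 and transplanted 1. The part of other cells' RNA or of RNA quality in the rod result was not tested.

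CRABP1 was lower in transplanted cones too, without passing the test. Cones held 1561, 781 and 153 CPM in cultured samples 1, 2 and 3, and 398 and 97.6 CPM in transplanted samples 1 and 3. The log2 change was -1.35 ± 0.46 (edgeR adjusted p = 0.14). It passed at -1.65 (adjusted p = 0.00683) with cells below the clone-share limit removed, and at -1.77 (adjusted p = 0.0064) with at least 10 cells per sum, which brings in transplanted sample 2 at 137 CPM from 14 cells. Müller glia held 4933, 3635 and 1104 CPM in culture and 2405, 1052 and 1318 CPM after transplantation. There the transplanted sample was lower in Sets 1 and 2 and higher in Set 3, and the change of -0.72 ± 0.70 was not called (adjusted p = 0.99). The responses of rods and cones differed by -0.16 ± 0.26, which was not called (adjusted p = 0.94). Those of rods and Müller glia differed by -1.44 ± 0.36, also not called (adjusted p = 0.25), but called without Set 2 (-1.84, adjusted p = 0.0022) and with no filter on low counts (-1.40, adjusted p = 9.8e-05).

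Between classes CRABP1 was lower in rods than in Müller glia by a log2 difference of -2.50 ± 0.29 (edgeR adjusted p = 4.5e-06), and in pigment epithelium by -4.42 ± 0.44 (adjusted p = 1.9e-06). Pigment epithelium held 540.2, 175 and 95.5 CPM in cultured 1, cultured 2 and transplanted 1. At 1000 UMIs per cell, 60.0 to 92.6% of Müller glia and 7.47 to 61.3% of rods held a CRABP1 UMI, and without thinning 90.9 to 97.3% and 26.0 to 78.7%. Dividing cells held 3750 and 1852 CPM in cultured samples 1 and 2 and 1380 CPM in transplanted sample 1. The remaining cells held 3165, 1703 and 568 CPM in culture and 1136, 559 and 389 CPM after transplantation, lower in each Set.

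CRABP2, which delivers retinoic acid to its nuclear receptors, was highest in cones, with changes of opposite sign in rods and cones. Cones held 888, 761 and 321 CPM in cultured samples 1, 2 and 3, and 667 and 152 CPM in transplanted samples 1 and 3, lower in both complete pairs. Rods held 320.3, 221 and 70.7 CPM in culture and 462, 239.6 and 106 CPM after transplantation, higher in each Set, which 14.0% of all genes were. Neither change passed alone (0.47 ± 0.26 in rods, edgeR adjusted p = 0.36, and -0.73 ± 0.43 in cones, adjusted p = 0.60). The difference between them, tested with the sample as a block, was 1.38 ± 0.19 on the log2 scale (adjusted p = 8.4e-07), and CRABP2 was the 1 member of 9 called there, against 0.453% of 19658 genes. Between the responses of rods and Müller glia 0 of 8 members were called (edgeR, 0.0110% of all genes), with 3 at an unadjusted p under 0.05. Between cones and Müller glia 0 of 9 were called (edgeR, 0.118% of all genes), with 1 at an unadjusted p under 0.05.

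That difference ended with no block (1.07, adjusted p = 1), with cells of several classes kept (0.74, adjusted p = 0.20) and with markers of at least 1 in 1000 UMIs (1.06, adjusted p = 0.056). Rods were lower than cones by a log2 difference of -1.31 ± 0.24 over all samples (adjusted p = 0.0020), and -1.32 (adjusted p = 0.0504) without Set 3. Müller glia held 19.1 to 82.0 CPM, and pigment epithelium 98.6, 72.4 and 208 CPM in cultured 1, cultured 2 and transplanted 1. The change in Müller glia was -0.51 ± 0.39 (adjusted p = 0.95), lower in each Set, which 22.2% of all genes were. In cones, 7 rod markers other than NRL summed to 63.4, 43.2 and 78.7 CPM in cultured samples 1, 2 and 3. They summed to 88.6 and 149 CPM in transplanted samples 1 and 3. The 6 cone markers other than PDE6H summed there to 74.4, 105 and 194 CPM in culture. After transplantation they summed to 84.6 and 96.5 CPM in samples 1 and 3. The part of other cells' RNA in the CRABP2 difference was not tested.

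**Figure D3:**
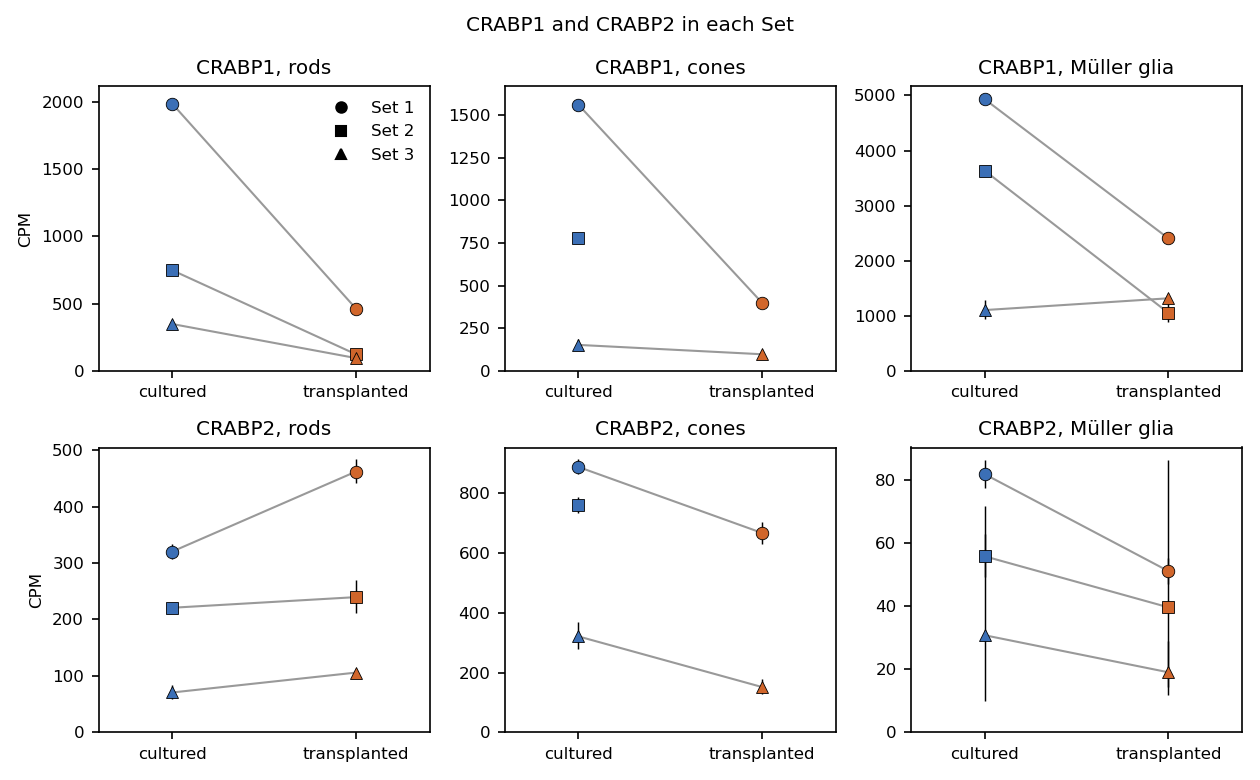
CPM of CRABP1 (top) and CRABP2 (bottom) in rods, cones and Müller glia, with a line joining the cultured and transplanted sample of a Set and bars for the exact Poisson 95% interval of the count, some smaller than the marker. CRABP1 fell in rods in all 3 Sets, from 1985 to 462 CPM in Set 1, while CRABP2 was higher in transplanted rods and lower in transplanted cones.

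No other member passed the test on transplantation in rods, cones or Müller glia as defined here. Under alternatives, RLBP1 in rods was called with cells of several classes kept (1.23, edgeR adjusted p = 0.022), and RPE65 in Müller glia with markers of at least 1 in 1000 UMIs (3.37, adjusted p = 0.030). In cones 0 of 8 tested members were called, against 1.09% of 15133 genes, and 2 had an unadjusted p under 0.05. In Müller glia 0 of 7 were called, against 0.719% of 15014 genes, and 3 had an unadjusted p under 0.05. DESeq2 with the Set as a block called none of them in either class. Members with too few counts were left out by the filter, LRAT in rods, RPE65 in cones, and LRAT and RDH12 in Müller glia. RPE65 was higher in transplanted rods by 1.72 ± 0.73, on 6, 23 and 1 UMIs in cultured and 20, 3 and 6 in transplanted samples 1, 2 and 3, and was not called (adjusted p = 0.21). ABCA4 was lower in transplanted Müller glia of each Set, which 22.2% of all genes were. Its log2 change was -1.64 ± 0.52 and was not called (adjusted p = 0.13). The transplanted sample of Set 2 rests on 25 Müller glia, so the direction in that Set is uncertain.

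**Figure D4:**
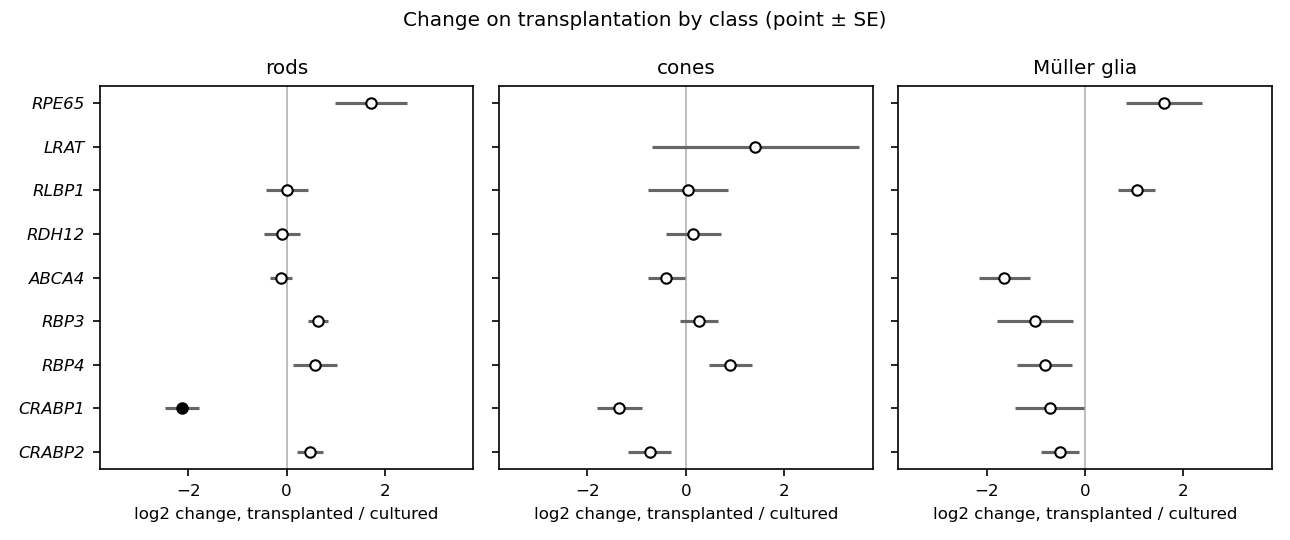
Log2 change of each tested gene from cultured to transplanted samples in rods, cones and Müller glia, with the SE as a bar. The 1 filled point passed the adjusted threshold, CRABP1 in rods at -2.12, and open points did not.

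In pigment epithelium a test with the Set as a block had no residual degrees of freedom, because only Set 1 held both samples. No test is given for this class. Within Set 1, RLBP1 was 248 CPM in the cultured and 336 CPM in the transplanted sample, with counting intervals of 214 to 286 and 287 to 392 CPM.

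The other genes of the pathway were read from a list of 34 genes for uptake, storage, oxidation, clearance and the nuclear receptors of retinoids. Among them, RGR and RDH5 were higher in pigment epithelium than in the other classes. RGR, a retinal isomerase opsin, was 217 to 260 CPM there and at most 6.62 CPM in the other classes. RDH5, which oxidises 11-cis retinol, was 125 to 141 CPM there and at most 15.4 CPM in the others. TTR was 8838 to 15302 CPM in pigment epithelium. Against rods, 14 of 30 tested genes of the list were higher in pigment epithelium and 2 lower (RXRG and RDH10), with a median of 1.03, beside 16.0% and 23.1% of all genes and a median of -0.30.

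RXRG, the retinoid X receptor of photoreceptors, was 140 to 175 CPM in rods and 246 to 397 CPM in cones. Rods were lower by -1.04 ± 0.17 on the log2 scale (edgeR adjusted p = 0.00022). CYP26B1, which clears retinoic acid, was lower in rods than in cones as well (-1.88 ± 0.48, adjusted p = 0.018), and these were the 2 of 30 genes called between rods and cones, close to the 7.26% of all genes. Against Müller glia, rods were higher in 5 of 30 genes and lower in 11 (22.4% and 21.9% of all genes), among the latter ALDH1A1 (-2.48 ± 0.44, adjusted p = 0.00043), which makes retinoic acid, and STRA6 (-1.39 ± 0.21, adjusted p = 9.8e-06), the receptor of RBP4. Cones were higher than Müller glia in 5 of 30 genes and lower in 10 (21.1% and 22.6% of all genes). Pigment epithelium was higher than cones in 15 of 30 genes and lower in 2 (15.7% and 21.6% of all genes), and higher than Müller glia in 9 and lower in 1, RDH10 (10.6% and 15.5% of all genes).

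**Figure D5:**
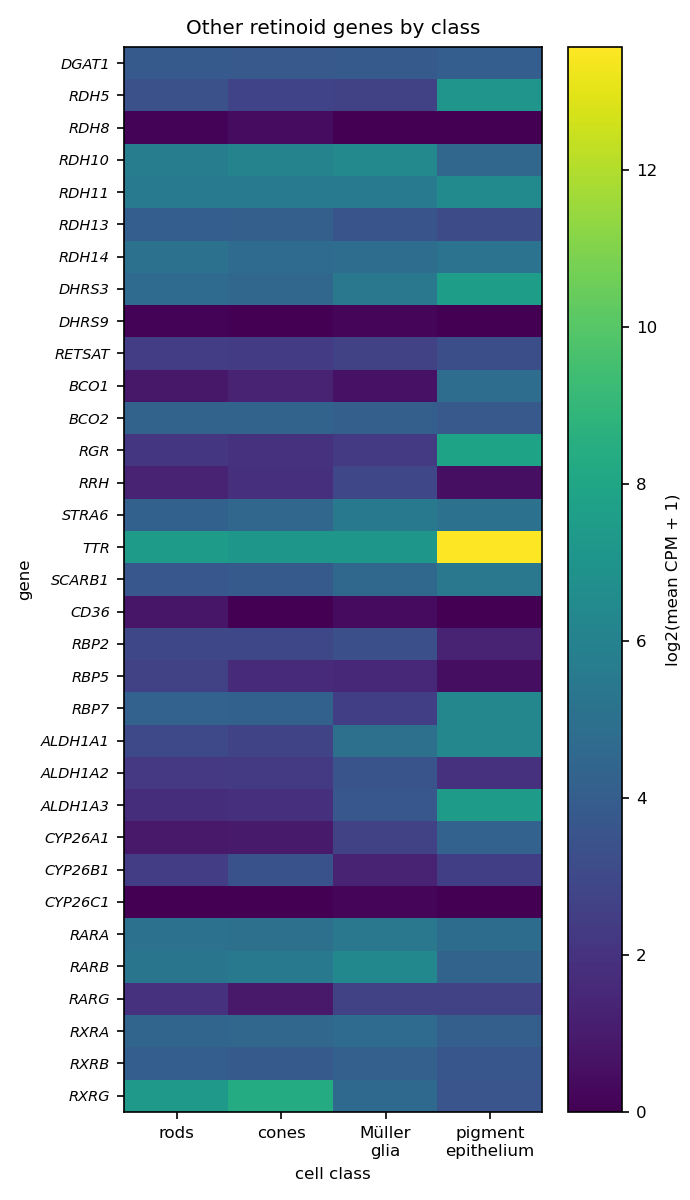
Mean level by class of the other retinoid genes reported here, as log2 of the mean CPM plus 1 over the samples with at least 20 cells (color). RGR, RDH5, DHRS3, ALDH1A3 and TTR are brightest in pigment epithelium, and RXRG in rods and cones.

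On transplantation 2 of 28 tested genes of the list changed in rods and both rose, with a median change over the list of 0.15, beside 4.36% of genes called and a median of -0.04 over all genes. CYP26B1 was 1.72, 2.66 and 0 CPM in cultured rods and 9.86, 11.1 and 1.18 CPM in transplanted rods of Sets 1, 2 and 3. It was higher in each Set, which 14.0% of all genes were. In Set 3 a cultured count of 0 stands against 1.18 CPM, so the direction of CYP26B1 there rests on few UMIs and is uncertain. Its log2 change was 2.34 ± 0.48 (edgeR adjusted p = 0.010). BCO2, which cleaves carotenoids, was 9.67, 17.97 and 7.12 CPM in cultured rods and 19.0, 30.8 and 27.9 CPM in transplanted rods. The groups of BCO2 did not overlap, which 3.94% of all genes showed in that direction, and its change was 1.22 ± 0.28 (edgeR adjusted p = 0.019). Both calls ended without Set 1 (adjusted p = 0.26 and 0.14) and with no block. In cones 0 of 26 genes were called by edgeR, and 3 had an unadjusted p under 0.05.

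In Müller glia 1 of 28 genes of the list was called, TTR, with a change of -2.37 ± 0.64 (edgeR adjusted p = 0.035). TTR was 564, 127 and 0 CPM in cultured and 176, 0 and 0 CPM in transplanted Müller glia of Sets 1, 2 and 3. The call ended under 8 alternatives and turned to 0.84 with markers of at least 1 in 1000 UMIs. Pigment epithelium markers in Müller glia, TTR among them, summed to 49.4 to 629 CPM in culture and 30.4 to 232 CPM after transplantation. TTR itself gave 564 of the 629 CPM in cultured sample 1 and 176 of the 232 CPM in transplanted sample 1. The sum therefore cannot bear on the TTR call, and the part of pigment epithelium RNA in this result was not tested.

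As a description of which genes share these patterns, Pearson's r of log2(CPM + 1) was taken over the 20 class sums, which share libraries and depths, for 9637 genes. RBP3 was most like VAMP2 (r = 0.97), PDC (0.97) and CCDC181 (0.96), and ABCA4 most like SV2B (0.96), IQSEC1 (0.95) and ANOS1 (0.95). RLBP1 was most like CCN2 (0.96), FRZB (0.94) and RARRES2 (0.94). CRABP1 was most like S1PR3 (0.95), SPP1 (0.93) and SFRP2 (0.92), and CRABP2 most like KCNK15 (0.91), LGALSL (0.91) and BAG1 (0.90). RBP4 was most like DPP10-AS1, RRAD and CCDC141 (0.93 each), and RPE65 most like ABRAXAS1 (0.83), BEST1 (0.83) and TTLL4 (0.82). LRAT and RDH12 were too low for this comparison.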

How the data were processed

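Single-cell 3′ libraries (10x v3.1 kit, per the labels) of 6 samples were deposited as raw UMI counts for each gene in each barcode. The authors, per the file headers, ran Cell Ranger 6.0.2 for Set 1 and 7.1.0 for Sets 2 and 3. The build is GRCh38 per the submitters' processing notes, and whether intronic reads were counted is not given in the sources used here.

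Cells were kept with at least 1000 UMIs, 500 genes and at most 20% mitochondrial UMIs. Cells meeting more than 1 class rule were left out, which also served as the treatment of doublets: Scrublet (Scanpy 1.11.5, 30 components) called 0 to 5 cells per sample by itself. Removing its highest scores (0.8% per 1000 cells) was an alternative. Counts were summed over classes of at least 20 cells and tested with edgeR 4.0.16 (filterByExpr, TMM, robust quasi-likelihood fit, R 4.3.3), with DESeq2 1.42.0 as an alternative. The SE of a log2 change is its size divided by the root of the F statistic. Seeded changes in simulated counts were checked beforehand.

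The Set is a block because both samples of a Set come from 1 organoid batch, per the series' design text. Same-Set deviations in rods correlated at 0.92, 0.59 and 0.80 for Sets 1, 2 and 3 over 15905 genes. P-values of transplanted against cultured measure the spread between these Sets. In cones as tested, only Sets 1 and 3 held both samples, so the p-values there rest on 2 pairs. Tests between classes and of the difference of responses had the sample as the block. Their p-values measure the spread of class differences between samples, with the 2 samples of a Set treated as separate. Named genes were all members, the genes of the 34-gene list called in a test or with the 2 highest means in a class, and the 3 genes most like each member. Some genes under this rule are not reported here. The members and lists were chosen with earlier results of these data known. Gene IDs matched GENCODE v29 for 34616 of 36601 genes and for all 9 members.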

Additional observations from a re-analysis of the deposited data

Results flagged for a closer look

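For 4 genes the response to transplantation differed between rods and cones by the edgeR test of that difference with the sample as a block. The log2 difference of the responses, rods minus cones, was 1.38 for CRABP2 (adjusted p = 8.4e-07), 2.82 for CYP26B1 (adjusted p = 0.015), 1.48 for RARB, a retinoic acid receptor (adjusted p = 0.012), and -1.16 for TTR (adjusted p = 0.036). The call ended under 9 of 14 alternatives for CYP26B1, 8 of 14 for RARB and 10 of 14 for TTR, which reversed under 1 more, and DESeq2 gave an adjusted p of 1 for all 3. That of CRABP2 ended under 3 of 14. CYP26B1 was 1.72, 2.66 and 0 CPM in cultured rods and 9.86, 11.1 and 1.18 CPM in transplanted rods, while cones held 7.74, 17.2 and 12.8 CPM in culture and 7.01 and 4.59 CPM in transplanted samples 1 and 3. RARB was 11.9, 120.3 and 48.2 CPM in cultured cones and 6.51 and 28.7 CPM in transplanted cones of samples 1 and 3, and in rods 7.49, 59.8 and 56.0 CPM in culture and 9.62, 47.1 and 47.3 CPM after transplantation.

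The other values lie in cells outside the 4 classes, which no comparison used, and each exceeded the level of all cultured samples there. RPE65 was 777 CPM in dividing cells of transplanted sample 1, of which 9 held at least 3 RPE65 UMIs, against 2.23 and 2.72 CPM in those of cultured samples 1 and 2. It was 93.8, 10.9 and 5.24 CPM in the remaining cells of transplanted samples 1, 2 and 3, against 1.44 to 1.93 CPM in culture. In the remaining cells of transplanted sample 1, RLBP1 was 17.6 CPM, against 2.91 to 7.90 CPM in culture, and RBP4 was 58.7 CPM, against 7.94 to 36.9 CPM. ABCA4 was 134 CPM in the remaining cells of transplanted sample 3, against 6.84 to 103 CPM in culture.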

How the results depend on the processing

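Of 1440 values of single genes under the alternatives, 1331 kept their side of the threshold, 1243 of them with the same direction and 88, all uncalled, with another sign, 77 lost their call, 29 gained one and 3 reversed. The reversed values were ABCA4 in pigment epithelium against Müller glia at -0.89 and TTR in the response of rods against cones at 0.18, both with cells of several classes kept, and TTR in Müller glia at 0.84 with markers of at least 1 in 1000 UMIs. The cause of these changes was not tested.

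Without the replicate block that pairs the samples, the genes called on transplantation went from 741 to 0 in rods, 165 to 0 in cones and 108 to 0 in Müller glia by edgeR, with 403, 201 and 123 at an unadjusted p under 0.05. Members called went from 8 to 5 in pigment epithelium against rods and against cones, from 2 to 0 in rods against cones, and from 1 to 0 in the response of rods against cones.

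DESeq2 called 468 genes in rods, 53 in cones and 7 in Müller glia. With no filter on low counts 81 genes were called in cones and 68 in Müller glia, and with markers of at least 1 in 1000 UMIs 286 and 57. With cells of several classes kept 801 were called in Müller glia, with the stricter cell filter (2000 UMIs, 1000 genes, 10% mitochondrial) 36, and with at least 10 cells per sum, chosen after seeing the data, 258 in cones. Members called in pigment epithelium against Müller glia went from 3 to 5 under DESeq2, with no filter and with markers of at least 1 in 1000 UMIs. With cells of several classes kept they went from 7 to 3 in rods against Müller glia, from 8 to 5 in pigment epithelium against rods and from 1 to 0 in the response of rods against cones, which was also 0 with markers of at least 1 in 1000 UMIs. With no filter they were 4 in rods against cones and 1 in the response of rods against Müller glia.

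Leaving out 1 Set at a time, 97 (without Set 1) to 1425 (without Set 3) genes were called in rods and 0 (without Set 1) to 182 (without Set 3) in Müller glia. Members called were 5 to 8 in pigment epithelium against cones, 1 to 2 in rods against cones, and 0 to 2 in the response of rods against Müller glia. Genes called in the response of rods against cones (89) ran from 0 to 656 over all alternatives.

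Not run, for lack of sums, were the blocked test in pigment epithelium, cones without Set 1 or 3, and Müller glia with at least 5 marker UMIs. Depth limits LRAT in all classes, RPE65 outside pigment epithelium and the Müller glia of transplanted sample 2 and of Set 3, which rest on 25, 33 and 119 cells.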
